A study of Homo sapiens with 18 samples.

Results

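The genes described here are 9 WNT feedback inhibitors and regulators of the WNT receptor, AXIN2, NKD1, ZNRF3, RNF43, LGR5, DKK1, SFRP1, SFRP2 and APCDD1. They were chosen by name for their known roles in the pathway, and followed through 3 kinds of deposited data from human embryonic stem cells. Of the 9 genes, 6 were listed among the 10975 genes of the RPKM table (RPKM is a read number scaled to transcript length and to all mapped reads of the library), and 5 of those 6 among the 497 genes of the table that holds the SP5 mutant cells. SFRP2 was listed in the RPKM table only, and ZNRF3, RNF43 and LGR5 were listed in neither table, so their expression was not analysed here.

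In canonical WNT signaling, a WNT ligand bound to a Frizzled receptor and to LRP5 or LRP6 stops the cytoplasmic destruction complex from degrading β-catenin, which then acts with TCF/LEF proteins at target genes. Many of those targets encode proteins that lower the signal again, so that the pathway limits itself at the ligand, at the receptor and in the cytoplasm. In pluripotent stem cells WNT drives exit from self-renewal towards mesendoderm, and SP5, itself a WNT target, is a zinc-finger factor related to SP1 that binds GC-rich sequence.

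The labels give all samples as H1, an established human embryonic stem cell line, grown in E8 medium. In both WT series (the first, and WT Rep. 2), unmodified H1 cells were treated with 1 nM Wnt3a for 12, 24 or 48 h, and the 0 h library came from cells given WNT storage buffer in place of Wnt3a. The clones dZF1 and dZF2 were each grown from a single H1 cell in which CRISPR-Cas9 had deleted the zinc-finger coding region of SP5 on both alleles, and they were treated at the same times. Each series and time was 1 library, 16 in all, so no value below has a replicate error and no test between WT and mutant cells is given. The exact permutation test of 2 clones against 1 WT series could not give a p below 0.333, and a clone can differ from its parent line for reasons other than SP5. SP5 ChIP-Seq peaks were deposited as a pair of lists, one labelled 0 h and one labelled 24 h of Wnt3a.

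SP5 served as the reference for the response. In the first WT series it was listed at 0 RPKM at 0 h, and at 49.8, 90.5 and 135.7 RPKM at 12, 24 and 48 h. In WT Rep. 2 its values, as fractions of that series' highest RPKM, were 0.02, 0.02, 0.09 and 1. On the same scale dZF1 gave 0.01, 0.23, 0.9 and 2.54, and dZF2 gave 0, 0.62, 0.75 and 2.61. The gene-level value does not check the deletion, since the rest of the transcript is still counted. At 24 h WT Rep. 2 was thus at 0.09 of its SP5 maximum, against 0.67 in the first WT series. The 4 mesendoderm markers listed in the mutant table moved with this gap: their median at 24 h was 1 of the maximum in the first WT series and 0.09 in WT Rep. 2. The 5 endoderm markers stood at a median of 0.15 and 0 at the same time. The part of this difference in the comparisons of clones with WT Rep. 2 was not tested, and the members' changes from 0 h are therefore also given beside those of the first WT series. Of the other markers, all 10 pluripotency genes were listed, with a summed level that went from 3247 RPKM at 0 h to 2261 RPKM at 48 h. Of 6 fibroblast markers 3 were listed (213.7 RPKM in sum at 0 h and 122.1 at 48 h). COL3A1, LUM and DCN were not. Of 5 neural markers NES and OTX2 were listed (200.4 RPKM in sum at 0 h and 326.8 at 48 h). PAX6, SOX1 and ZIC1 were not.

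The sequences at which SP5 was called near the members, and the promoters of the members that rose most, are shown first. SP5 peaks lay near 3 of the 9 genes, at AXIN2, NKD1 and RNF43. The lines below give the AXIN2 and NKD1 summits on the strand of the gene, 5′ to 3′, in the GRCh37 (hg19) build of the deposited peaks, with 100 bases on each side and any bases of an annotated UTR left out. Capitals mark matches, on either strand, to GGGCGG and GGGAGG, the core of the GC box and its GA form bound by SP proteins, and to CTTTGA and CTTTGT, the core bound by TCF/LEF. The first summit lay in an intron of AXIN2 near its start (chr17:63556455-63556630, minus strand), the second deeper in its introns (chr17:63547448-63547648, minus strand) and the third upstream of NKD1 (chr16:50581860-50582060, plus strand).
AXIN2 intronic peak near the start: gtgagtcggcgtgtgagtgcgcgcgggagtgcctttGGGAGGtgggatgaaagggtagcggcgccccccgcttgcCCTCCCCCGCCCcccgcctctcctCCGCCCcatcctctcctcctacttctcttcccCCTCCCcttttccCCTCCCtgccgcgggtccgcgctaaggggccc
AXIN2 second intronic peak: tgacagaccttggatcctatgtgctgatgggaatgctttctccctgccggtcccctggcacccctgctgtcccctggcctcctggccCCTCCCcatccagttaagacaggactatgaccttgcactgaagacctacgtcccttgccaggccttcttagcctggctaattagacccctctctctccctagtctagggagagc
NKD1 upstream peak: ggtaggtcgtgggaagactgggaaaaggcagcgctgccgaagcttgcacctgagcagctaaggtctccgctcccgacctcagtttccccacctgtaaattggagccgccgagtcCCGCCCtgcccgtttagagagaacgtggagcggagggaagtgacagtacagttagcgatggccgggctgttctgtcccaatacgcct

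For comparison, the 250 bases before the RefSeq start sites of DKK1 and APCDD1 are given below, again with the same motifs in capitals. They are the members with the greatest rise and had no SP5 peak nearby. Promoters came from RefSeq in the GRCh38.p14 build, a different build from that of the peaks, at chr10:52314031-52314280 and chr18:10454385-10454634, both on the plus strand. Of the 9 members, 4 had a promoter in that table (DKK1, SFRP2, RNF43 and APCDD1).
DKK1 promoter: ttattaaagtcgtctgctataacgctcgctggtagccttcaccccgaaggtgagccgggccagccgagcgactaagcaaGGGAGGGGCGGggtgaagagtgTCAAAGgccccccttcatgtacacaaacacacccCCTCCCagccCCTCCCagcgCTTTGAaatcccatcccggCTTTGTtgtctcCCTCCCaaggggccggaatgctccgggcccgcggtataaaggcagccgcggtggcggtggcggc
APCDD1 promoter: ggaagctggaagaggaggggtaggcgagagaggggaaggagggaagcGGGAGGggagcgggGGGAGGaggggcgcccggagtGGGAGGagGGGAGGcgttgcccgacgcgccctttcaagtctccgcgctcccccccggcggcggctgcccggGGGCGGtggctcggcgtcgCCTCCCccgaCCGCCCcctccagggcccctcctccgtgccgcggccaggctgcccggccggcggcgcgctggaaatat

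The AXIN2 summit near the start was rich in GC-box letters. It held 2 matches to GGGCGG and 4 to GGGAGG within 100 bases, the closest centred 2.5 bases from the summit, and 70.1% of its bases were G or C. The second AXIN2 summit held 1 GGGAGG, the NKD1 summit held 1 GGGCGG centred 16.5 bases away, and the RNF43 summit held neither and 1 CTTTGA at 54.5 bases. These letters are common: GGGCGG was within 100 bases of 35.3% of summits in the list called against buffer-treated control chromatin and of 42.1% in the list called against Wnt3a-treated control, and in 45.0% of all 35116 promoters of 300 bases. GGGAGG was in 49.5% and 50.8% of summits and in 49.3% of promoters. CTTTGA was in 14.5% and 12.8% of summits and 12.9% of promoters, and CTTTGT in 15.8% of summits in each list and 16.1% of promoters. In the printed bases the DKK1 promoter held 1 GGGCGG, 4 GGGAGG, 2 CTTTGA and 1 CTTTGT. The APCDD1 promoter held 2 GGGCGG and 5 GGGAGG and no match to CTTTGA or CTTTGT. The SFRP2 promoter held 1 GGGCGG and 2 GGGAGG. A match is a description of letters and not of binding, and a GGGCGG can share a base with a GGGAGG, as in the DKK1 promoter.

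The deposited peaks near members were at AXIN2 and NKD1, which act in the cytoplasm, and at 1 of the 4 members that act at the membrane, RNF43. AXIN2 is the inducible scaffold of the destruction complex and a standard readout of WNT activity. One of its peaks, at chr17:63556044-63556744, was in both lists, with its summit 1211 bases downstream of the start site of the gene (chr17:63524681-63557766, minus strand) in an intron of the main transcript, and held 26 tags. The other, at chr17:63547194-63548035 with its summit 10218 bases into the gene and also intronic, held 22 tags and was only in the list called against buffer-treated control. Another annotated transcript of AXIN2 starts 120 bases from the first of these summits. NKD1 binds Dishevelled and dampens the signal in the cytoplasm. Its peak at chr16:50581438-50582145 was in both lists with 21 tags, and its summit lay 347 bases upstream of the gene (chr16:50582307-50683160, plus strand). RNF43 is a membrane ubiquitin ligase that removes Frizzled receptors from the surface. Its peak at chr17:56494253-56495279, with 30 tags and a summit 317 bases downstream of the start in the 5′ UTR exon of the gene (chr17:56431037-56494956, minus strand), was only in the list called against buffer-treated control. An unnamed coding gene of the annotation has its start site at the same distance from the RNF43 summit.

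All 4 peaks had high false discovery rates in the authors' lists. MACS gave the AXIN2 peak near the start an enrichment of 11.29-fold and a false discovery rate of 32.5% against buffer-treated control, and 9.49-fold and 30.39% against Wnt3a-treated control. The second AXIN2 peak had 6.96-fold and 70.91%. The NKD1 peak had 7.23-fold and 61.17% in the first list, and 6.09-fold and 46.94% in the second. The RNF43 peak had 5.56-fold and 51.2%. By score (-10 times the log10 of the p-value) the AXIN2 peak near the start was in place 120 of 542 and 204 of 540, the NKD1 peak in place 188 and 391, and the RNF43 peak in place 166 of 542. The peak over the start of SP5 itself, with 93 tags and a false discovery rate of 0%, stood in place 6 and 9. The rates are high throughout: the median was 69.6% in the list against buffer-treated control and 39.7% in the other, and only 6.46% and 9.81% of peaks were at 5% or less, none of them within 100 kb of a member.

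Counted within 100 kb of the start site, 3 of 9 members had a peak against buffer-treated control, where the background was 6.60% of the 10651 genes of the RPKM table with a start site, and 2 of 9 had one against Wnt3a-treated control, where it was 7.42%. Those 10651 genes are expressed genes and 3 of the members are not among them. ZNRF3, the close relative of RNF43 with the same role, had its nearest summit 422.7 kb away in the first list and 1081.5 kb in the second. The other 5 members, namely LGR5, a receptor for R-spondins, the secreted DKK1, SFRP1 and SFRP2, and the membrane protein APCDD1, had no summit within 1 Mb in either list. The nearest was 1316.8 kb from LGR5. Both lists name the same ChIP library of 18641194 tags in their headers and differ in the control, so a peak in both is not a replicate. The headers also name that library as H9, another embryonic stem cell line, whereas the labels give H1. No change in binding with Wnt3a can be read from them.

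**Figure D1:**
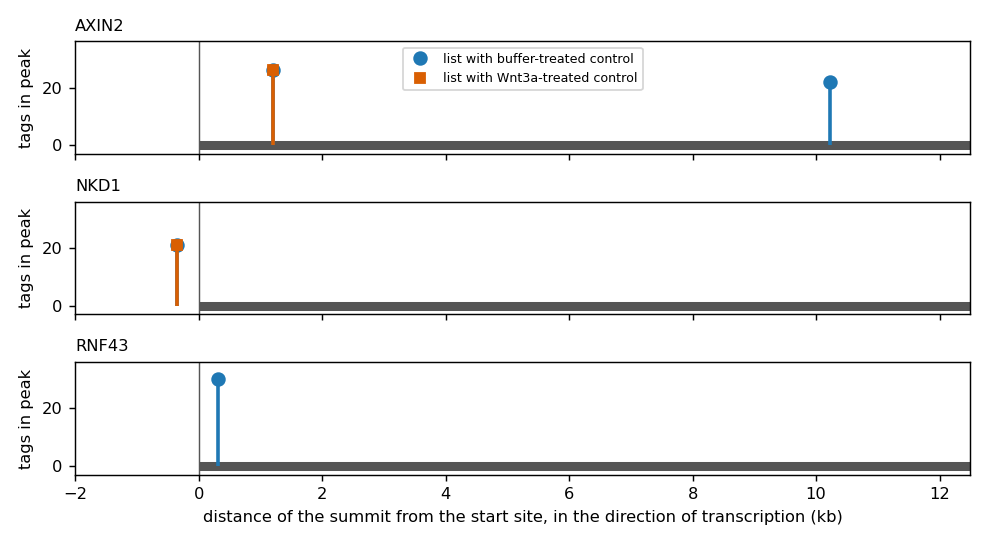
Position of SP5 peak summits at AXIN2, NKD1 and RNF43 (x axis, kb from the start site in the direction of transcription, grey bar the gene body) against the tags in the peak (y axis), by the control library of the list. AXIN2 and NKD1 have a peak of 26 and 21 tags in both lists, while the second AXIN2 peak (22 tags) and the RNF43 peak (30 tags) are in the buffer-treated control list only.

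Expression of the 6 listed members under Wnt3a fell into 3 patterns in the first WT series. DKK1 and APCDD1 started near the bottom of the table and rose steeply, AXIN2 and NKD1 stood above their 0 h level by less, and SFRP1 and SFRP2, the most abundant members, ended below theirs. In bulk samples such as these, a change in the number of cells that express a gene and a change in RNA per cell cannot be told apart. Changes below are log2 ratios to 0 h after adding 1 RPKM to each value, which understates the change of low genes, and a gene is counted as higher or lower from 2-fold on that scale.

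Among the cytoplasmic inhibitors, AXIN2 was at 15.5, 24.4, 23.8 and 22.0 RPKM at 0, 12, 24 and 48 h. Of the sampled times it was highest at 12 h, at 1.57 times its 0 h level. It reached 2-fold at none of them, since its log2 changes were 0.62, 0.59 and 0.48. By qPCR the authors placed its maximum before 12 h, where there was no library here. NKD1 was at 2.0, 3.0, 4.5 and 7.2 RPKM, so that each time was above the one before while the gene remained low. Its log2 changes were 0.42, 0.87 and 1.45, and only the last passed 2-fold. Of all listed genes, 378 showed a larger change upwards than AXIN2 at 12 h and 1487 did at 48 h, whereas for NKD1 the number went from 802 to 284. In WT Rep. 2 AXIN2 was also highest at 12 h, while NKD1 was highest at 24 h and at 0.75 of its maximum at 48 h.

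Among the inhibitors that act outside the cell, DKK1 binds LRP5 and LRP6 and keeps WNT from engaging them. It was at 0.6, 1.1, 14.3 and 69.5 RPKM, nearly flat for 12 h and then steep, with 55.2 RPKM of the gain falling between 24 and 48 h. Its log2 changes were 0.39, 3.26 and 5.46, and at 48 h only 9 of the 10975 genes had a larger one. APCDD1, a membrane glycoprotein that can bind WNT and LRP proteins, was at 1.1, 7.9, 20.2 and 19.8 RPKM. It rose at once and then levelled off, with log2 changes of 2.08, 3.34 and 3.31, behind 21 genes at 12 h and 40 at 48 h. At 12 h APCDD1 was therefore 7.18 times and DKK1 1.83 times its 0 h level, while at 48 h the ratios were 18 and 116. WT Rep. 2 did not repeat the rise of either gene by 24 h. There APCDD1 was at 0.22, 0.22, 0.28 and 1 of its maximum, and DKK1 at 0, 0.02, 0 and 1.

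SFRP1 and SFRP2 are secreted proteins with a Frizzled-like domain that bind WNT ligands. SFRP1 was at 286.9, 188.9, 117.2 and 173.1 RPKM, a fall to 40.9% of its 0 h level at 24 h with a partial return at 48 h, and its log2 changes were -0.60, -1.28 and -0.73. Only 75 of the 10975 genes had a larger drop at 24 h. In WT Rep. 2 SFRP1 was at 0.99, 1, 0.81 and 0.59 of its maximum, so it was lowest at 48 h and showed no return. SFRP2 was at 245.9, 250.1, 197.7 and 165.1 RPKM, level to 12 h and below that later, with log2 changes of 0.02, -0.31 and -0.57, all within 2-fold.

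**Figure D2:**
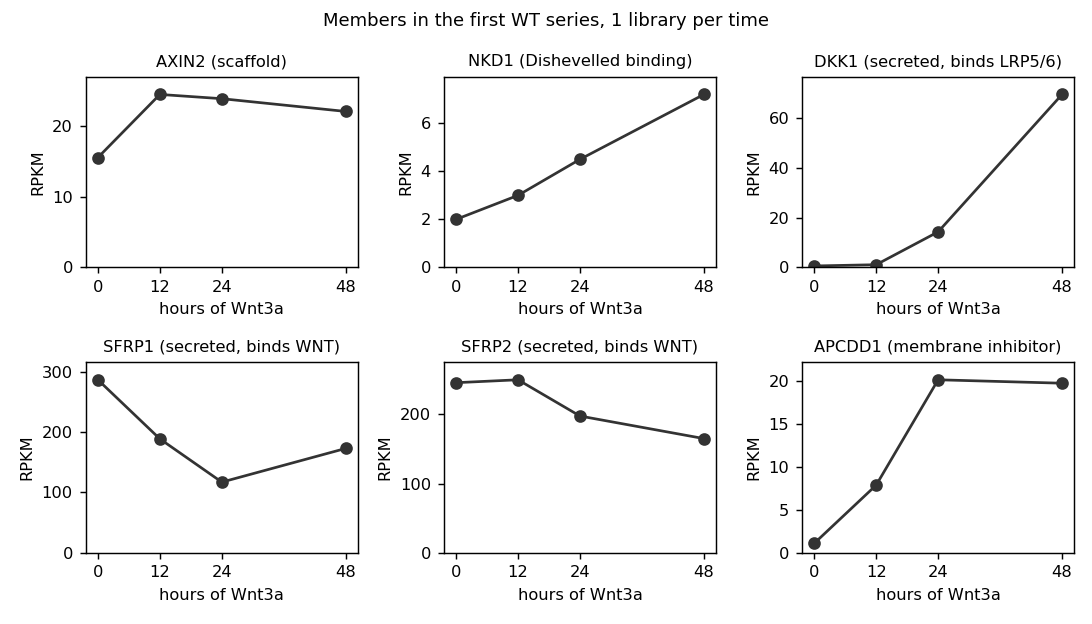
RPKM (y axis, from 0) of the 6 listed members in the first WT series against hours of 1 nM Wnt3a (x axis), 1 library per point. DKK1 reaches 69.5 and APCDD1 19.8 RPKM at 48 h from 0.6 and 1.1. Of the times shown, AXIN2 is highest at 12 h (24.4) and SFRP1 lowest at 24 h (117.2).

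Counted against the whole table, 1 of 6 members (APCDD1) was at least 2-fold higher at 12 h, where 1.22% of all genes were, 2 of 6 (DKK1 and APCDD1) at 24 h against 2.62%, and 3 of 6 (NKD1, DKK1 and APCDD1) at 48 h against 4.87%. At least 2-fold lower was 1 of 6 (SFRP1) at 24 h, where 1.36% of genes were, and none at 12 h or 48 h, where 0.738% and 2.95% were. The median log2 change of the 6 members was 0.40, 0.73 and 0.96 at the 3 times, beside -0.01, -0.01 and 0.00 for all genes. The members were picked as known WNT targets and regulators, so these shares describe them and are not a test. RPKM is a level per length of transcript and can be compared between genes: at 0 h the order was SFRP1, SFRP2, AXIN2, NKD1, APCDD1 and DKK1, and at 48 h it was SFRP1, SFRP2, DKK1, AXIN2, APCDD1 and NKD1. The neighbours SFRP1 and SFRP2 changed places at 12 h and again by 48 h, and AXIN2 and APCDD1 were close at 48 h (22.0 and 19.8 RPKM), with 1 library each. SFRP1 and SFRP2 together went from 532.8 RPKM at 0 h to 338.2 at 48 h, while the other 4 members together went from 19.2 to 118.5.

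The rest of the pathway was mostly within 2-fold. Of 54 further pathway genes in 5 lists, 35 were listed in the RPKM table, and 4 of them were higher and 1 lower at 48 h. Of the 17 secreted or membrane antagonists 8 were listed, with 2 higher and 1 lower at 12 h, 2 higher and 2 lower at 24 h, and 3 higher and 1 lower at 48 h. CER1, which binds NODAL, BMP and WNT ligands, was at 1.8, 6.7, 466.7 and 634.0 RPKM. DKK4, a relative of DKK1, was listed at 0 at 0 h and at 2.2, 29.6 and 20.4 RPKM afterwards. FRZB, another SFRP family protein, was at 1.6 RPKM at 0 h and 4.8 at 48 h. TRABD2A, a protease that inactivates WNT ligands, was lower, at 6.3 RPKM at 0 h and 0.9 at 48 h. SHISA2 and SHISA3, singled out after their values were seen, retain Frizzled receptors inside the cell. SHISA2 was at 36.1, 13.1, 7.0 and 55.5 RPKM and SHISA3 at 4.1, 2.3, 0.8 and 5.7 RPKM, so both were lowest at 24 h and above their 0 h level at 48 h. Of the 12 listed destruction complex genes none passed 2-fold at any of the 3 times, and their median log2 change at 48 h was 0.03. Of the 12 listed activators, TCF7, a partner of β-catenin, was higher at 48 h (5.7 RPKM at 0 h and 16.5 at 48 h) and the other 11 were within 2-fold. Of the R-spondins and their receptors LGR4 alone was listed, at 30.2 and 19.1 RPKM at 0 h and 48 h. DACT1, a cytoplasmic inhibitor singled out in the same way, was at 19.3, 40.4, 56.3 and 15.5 RPKM, so it was more than 2-fold higher at 12 h and 24 h and below its 0 h level at 48 h. The second WT series did not repeat this: in WT Rep. 2 DACT1 was at 0.22, 0.34, 0.4 and 1 of its maximum, highest at 48 h. There DKK4 was at 0, 0.01, 0 and 1, without the level of the first WT series at 24 h. TCF7 was at 0.52, 1, 0.95 and 0.8, highest at 12 h. SHISA2 was at 0.39, 0.42, 0.3 and 1, again lowest at 24 h but by less. CER1 was at 0, 0, 0.02 and 1, again highest at 48 h.

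The mutant table addressed whether the feedback genes respond differently without the SP5 zinc fingers. Its values are ratios to each gene's highest RPKM in WT Rep. 2, so levels can be compared between series for 1 gene but not between genes. AXIN2 was at 0.87, 1, 0.82 and 0.76 in WT Rep. 2, at 0.57, 0.71, 0.87 and 0.71 in dZF1, and at 0.57, 0.66, 1.09 and 0.94 in dZF2. Both clones were below WT Rep. 2 at 0 h (65.5% of it in each) and at 12 h, both were above it at 24 h, and they lay on either side of it at 48 h. NKD1 was at 0.5, 0.67, 1 and 0.75 in WT Rep. 2, at 1.01, 1.01, 0.75 and 1.29 in dZF1, and at 0.69, 1.14, 1.53 and 1.25 in dZF2. Both clones were above WT Rep. 2 at 0 h, 12 h and 48 h, by 1.72 and 1.67 times at the last, while at 24 h dZF1 was below it and dZF2 above it.

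DKK1 was the member with the greatest excess in the clones. In WT Rep. 2 it was listed at 0, 0.02, 0 and 1, in dZF1 at 0, 0, 0.1 and 2.62, and in dZF2 at 0, 0.01, 0.16 and 3.3. At 48 h the clones were thus at 2.62 and 3.30 times the WT Rep. 2 level, a mean log2 ratio of 1.51 with 0.33 between the clones. Only 14 of the 497 genes had a higher mean. At 24 h WT Rep. 2 was listed at 0, so no fold is given. APCDD1 was at 0.22, 0.22, 0.28 and 1 in WT Rep. 2, at 0.11, 0.36, 0.46 and 1.45 in dZF1, and at 0.2, 0.31, 1.73 and 2.29 in dZF2. Both clones were above WT Rep. 2 from 12 h on, but they differed from each other by a log2 ratio of 1.80 at 24 h, where dZF2 was 6.18 times and dZF1 1.64 times WT Rep. 2. That excess at 24 h turned when changes from 0 h were set against the first WT series, as given further on. SFRP1 was at 0.99, 1, 0.81 and 0.59 in WT Rep. 2, at 1.27, 1.07, 0.66 and 0.75 in dZF1, and at 1.22, 0.93, 0.54 and 0.65 in dZF2. Its clones started above WT Rep. 2, were below it at 24 h and above it again at 48 h.

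**Figure D3:**
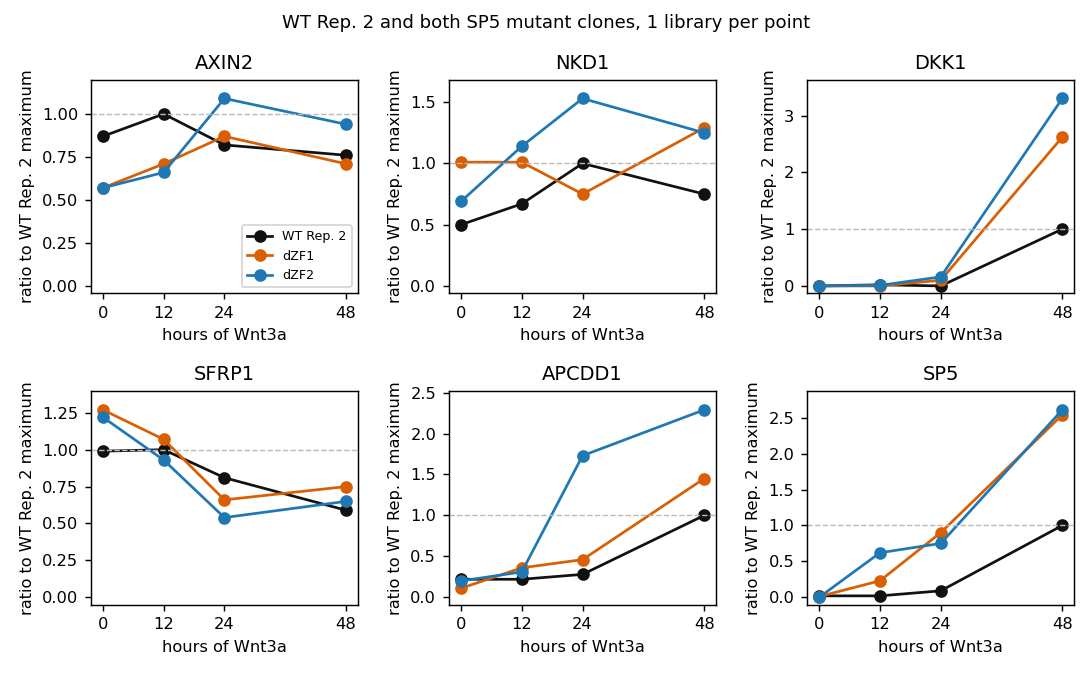
Expression of the 5 members of the mutant table and of SP5 (y axis, ratio to the highest RPKM of WT Rep. 2) against hours of 1 nM Wnt3a (x axis), 1 library per point, in WT Rep. 2, dZF1 and dZF2. DKK1 reaches 2.62 and 3.3 in the clones at 48 h, and SP5 reads 0.9 and 0.75 in the clones at 24 h when WT Rep. 2 reads 0.09.

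With 0.05 added to each value, DKK1 was the 1 member of 5 at least 2-fold higher in both clones at 48 h, where 6.24% of the 497 genes were, and the 1 of 5 at 24 h, where 10.5% were and where the call rests on the value added, since WT Rep. 2 was listed at 0. No member was 2-fold higher in both clones at 0 h or 12 h, where 2.21% and 3.42% of genes were. No member was 2-fold lower in both clones at 0, 12, 24 or 48 h, where 2.82%, 3.82%, 2.82% and 3.22% of genes were. The median of the mean log2 ratio over the 5 members at 48 h was 0.72, beside 0.05 over all 497 genes. At 24 h it was 0.24 for the members and 0.24 for all genes. In the plot of both clones at 48 h, 4 of 5 members were above WT Rep. 2 in both, as were 222 of the 497 genes. The 497 genes were picked by the authors as WNT-responsive in WT cells, so they are no sample of all genes. Among the other pathway genes of the table, DACT1 at 12 h was at 0.34 in WT Rep. 2 against 1.03 and 1.66 in dZF1 and dZF2, and at 48 h it was at 1, 0.89 and 1.15 in that order. CER1 was at 1, 1.44 and 1.33 at 48 h, and DKK4 at 1, 0.63 and 0.35. SHISA2 was at 1, 1.83 and 1.51, and TCF7 at 0.8, 0.91 and 1.42. In the same order at 24 h, DKK4 was at 0, 0.05 and 0.2 and CER1 at 0.02, 0.17 and 0.38. DACT1 was then at 0.4, 1.53 and 2.37. All of these were at least 2-fold higher in both clones at 24 h, for DKK4 by the value added, as was DACT1 at 12 h. None of the 5 genes (DACT1, CER1, DKK4, SHISA2 and TCF7) was 2-fold higher or lower in both clones at 48 h. For them only the comparison of clones with WT Rep. 2 is given, although the first WT series was nearer its own maximum at 24 h for DKK4, DACT1 and CER1. There DKK4 and DACT1 were at their maximum (29.6 and 56.3 RPKM) and CER1 was at 466.7 RPKM, against 634.0 at 48 h. The part of this gap between the WT series in the excess at 24 h was not tested.

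**Figure D4:**
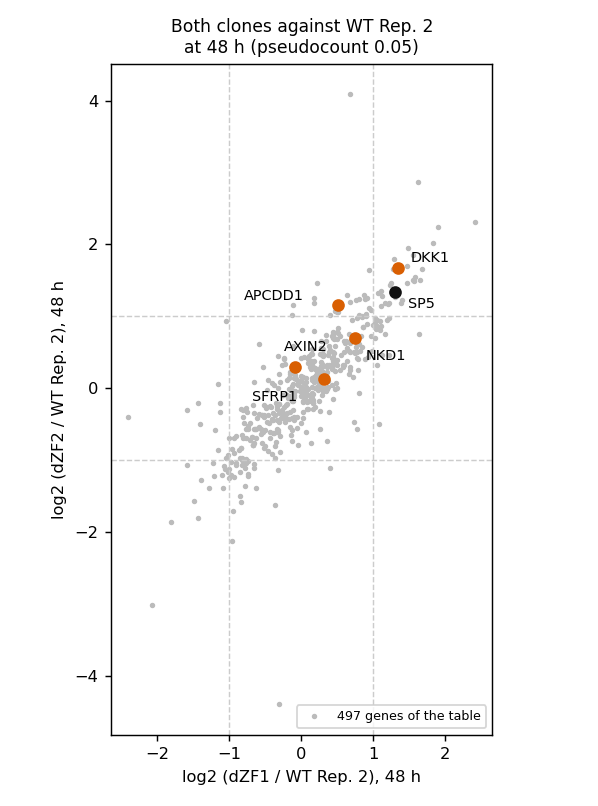
Log2 ratio to WT Rep. 2 at 48 h in dZF1 (x axis) and dZF2 (y axis), with 0.05 added to each value, for the 497 genes of the mutant table (grey), the 5 members (orange) and SP5 (black), dashed lines at 2-fold. DKK1 lies past 2-fold in both clones at 1.35 and 1.67, APCDD1 in dZF2 only, and AXIN2, NKD1 and SFRP1 in neither.

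Each series was also set against its own 0 h library, so that the first WT series could be placed beside the other series. The clone values stay on the scale of the WT Rep. 2 maximum, and the first WT series on that of its own. Division by the 0 h value cancels this scale only where that value is well above the value added. For genes at or near 0 at 0 h, such as DKK1, the clone changes still depend on WT Rep. 2. At 48 h, 3 of 5 members (NKD1, DKK1 and APCDD1) were at least 2-fold higher in the first WT series, where 55.1% of the 497 genes were. In each of the other series it was 2 of 5 (DKK1 and APCDD1), beside 36.4% of genes in WT Rep. 2 and 47.3% and 45.9% in the clones dZF1 and dZF2. None was 2-fold lower, where the shares of all genes were 18.5% and 6.44% for the first and second WT series and 13.9% and 16.3% for dZF1 and dZF2. The comparisons share their 0 h library within a series.

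DKK1 changed from 0 h to 48 h by log2 ratios of 4.13 and 4.39 in the first and second WT series, and of 5.74 and 6.07 in dZF1 and dZF2. The clones were above both WT series, by 1.51 over WT Rep. 2 and 1.77 over the first WT series on average, while the WT series were 0.26 and the clones 0.33 apart. Since DKK1 was listed at 0 at 0 h in all series but the first, the size of these changes is set by the value added. Each WT series is scaled to its own maximum, which DKK1 reached at 48 h, so its WT change could not exceed 4.39. The clones are scaled to the WT Rep. 2 maximum and have no such limit. The excess over the first WT series therefore rests on the scaling and gives no second comparison. At 24 h the DKK1 changes were 2.12, 0, 1.59 and 2.07 in the same order, so on these scales the clones lay between the WT series. APCDD1 changed by 3.23, 1.96, 3.23 and 3.23 at 48 h. The clones were 1.27 above WT Rep. 2 and level with the first WT series. The values for NKD1 were 1.67, 0.54, 0.34 and 0.81, and those for AXIN2 were 0.48, -0.18, 0.29 and 0.68. For both genes the clones lay nearer to one another than the WT series, which were 1.13 and 0.66 apart. For SFRP1 they were -0.69, -0.70, -0.72 and -0.86, all below 0 and within 2-fold.

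At 24 h the mean of the clones was taken as a ratio to WT Rep. 2 and as a change beside the first WT series. The sign differed between these for 4 of the 5 members, DKK1, APCDD1, NKD1 and SFRP1. These measures differ both in the WT series and in the division by 0 h. With changes from 0 h on both sides, the clone mean of NKD1 was below WT Rep. 2 (-0.59) and the first WT series (-0.68). For DKK1, APCDD1 and SFRP1 the sign still differed between the WT series. For DKK1, listed at 0 in both clones at 0 h, the comparison with the first WT series depends on the scaling given above. APCDD1 changed by 3.25 in the first WT series and by 1.67 and 2.83 in dZF1 and dZF2, so both clones lay below the first WT series, by 1.00 on average, although both were above WT Rep. 2 (0.29). NKD1 gave 1.02 and 0.93 in the WT series and -0.41 and 1.09 in the clones, which stood on either side of both. SFRP1 gave -1.19 and -0.27 in the first and second WT series, and -0.89 and -1.11 in the clones. For AXIN2 the clones (0.57 and 0.88) were close to the first WT series (0.58) and above WT Rep. 2 (-0.08). At 12 h the clones of APCDD1 (1.36 and 0.53) lay between WT Rep. 2 (0) and the first WT series (2.0). The same was true of SFRP1 at 12 h, with -0.24 and -0.37 in the clones between 0.01 and -0.56. The 12 h changes of AXIN2, NKD1 and DKK1 were within 2-fold in all 4 series.

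A change in both clones above that in both WT series was seen at 48 h for 1 of 5 members (DKK1), beside 15.9% of the 497 genes, and a change below it for 1 of 5 (SFRP1, by 0.02 in dZF1), beside 16.3%. At 24 h there was none of 5 in either direction, beside 11.7% above and 8.45% below. These shares are near the background, and the DKK1 count at 48 h rests on the scaling given above.

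**Figure D5:**
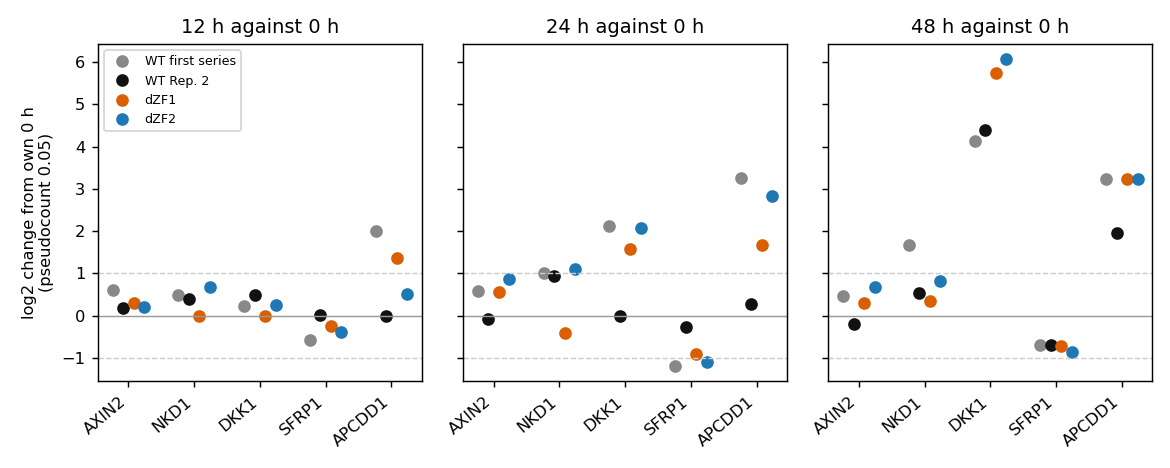
Log2 change from the 0 h library of the same series (y axis, 0.05 added to each value) for the 5 members at 12, 24 and 48 h (panels), 1 point per series. At 48 h DKK1 is at 5.74 and 6.07 in the clones and 4.13 and 4.39 in the WT series, and SFRP1 lies between -0.69 and -0.86 in all 4.

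Over the 12 libraries of the mutant table, the genes most like each member were found by Pearson's correlation of log2 values. The 12 points share series and time course, so r is a description. DKK1 was closest to FGF17 (r = 0.99), GATA6 (0.98) and CYP26A1 (0.98), and 173 of the other genes had r over 0.8 with it. In these libraries DKK1 was at most 0.02 at 0 h and 12 h and at most 0.16 at 24 h, so its r rests largely on 48 h. APCDD1 was closest to PLXNA2, ODZ4 and LSS (each 0.95), with 145 genes over 0.8. SFRP1 was closest to ARC (0.89), OLFM1 (0.85) and LINGO1 (0.84), with 4 genes over 0.8. NKD1 was closest to GMPR (0.80), MCC (0.80) and SLFN13 (0.75), and AXIN2 was like F2RL1 (0.73) and FGF4 (0.70), with 1 and 0 genes over 0.8. Among the members DKK1 and APCDD1 were most alike (0.88) and SFRP1 ran against APCDD1 (-0.85), while AXIN2 and NKD1, the pair with an SP5 peak in both lists, had r = 0.08. Against SP5 itself r was 0.88 for APCDD1, 0.83 for DKK1, 0.60 for NKD1, 0.29 for AXIN2 and -0.79 for SFRP1.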

How the data were processed

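RNA-Seq was measured in the 16 libraries described above, and SP5 ChIP-Seq in the 1 library that the headers of both peak lists name. Per the submitters' processing notes and methods, reads were aligned to hg19 (GRCh37) with TopHat and Bowtie 0.12.7, handled with SAMtools 0.1.12a and quantified with Cuffdiff. The authors gave RPKM to 1 decimal, for genes that reached at least 4.0 RPKM, and each gene as a fraction of its own maximum, which stood in for the first WT series in the comparison of the 4 series. In the table with the clones, the authors deposited a fraction of the WT Rep. 2 maximum for WT Rep. 2 and, for dZF1 and dZF2, the ratio of their RPKM to it. No table gives read counts, so the depth of these libraries is unknown. Peaks were from MACS 1.4.2 with a p-value limit of 1e-05, and for each the authors deposited its tag count, a score (-10 log10 p), the fold over control and, in percent, the false discovery rate. The table of the authors' own differential expression results was not used.

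Columns were assigned by their names, and 0 were left unused for want of a condition. Log2 ratios used a pseudocount of 1 on RPKM and 0.05 on fractions, with a threshold of 2-fold. Python 3.11.15, numpy 2.4.6, pandas 2.3.3 and pysam 0.24.0 were used, and the calls were tested on simulated data. Start sites came from GENCODE release 44 mapped to GRCh37, in which 10651 of 10975 symbols matched (1032 by an older symbol). Motifs were searched on both strands within 100 bases of a summit, leaving out 3 peaks and 1 peak on unplaced sequences, and in RefSeq promoters from 250 bases before to 50 after the start. The members and lists were chosen with earlier results of these data known. Named genes were all members, SP5, pathway genes that passed 2-fold in the first WT series by 48 h (up to 4 per list) and the 3 genes most correlated with each member, of which 1 is not reported here.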

Additional observations from a re-analysis of the deposited data

How the results depend on the processing

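Of 122 recomputed counts of members, 106 stayed within 1.5 times the value given, and of 167 recomputed changes of single members, 151 kept their side of the threshold and 155 their sign. All 12 changes of sign were in the clones against WT Rep. 2, and 6 of them came with the change from 0 h set against the first WT series. With a 1.5-fold threshold in the first WT series, 2 members were higher and 1 lower at 12 h, 4 higher at 24 h and 1 lower at 48 h. In both clones against WT Rep. 2 at 24 h, 0 members were higher with a pseudocount of 0.2 and 0 against the change of the first WT series, and 2 after division of every series by its 0 h library, without dZF1 or at 1.5-fold. Against the first WT series, the mean log2 ratio at 24 h turned for DKK1 to -0.29 from 1.83, for APCDD1 to -1.0 from 1.53, for NKD1 to -0.68 from 0.10 and for SFRP1 to 0.19 from -0.41, and at 48 h for NKD1 to -1.09 from 0.72 and for SFRP1 to -0.10 from 0.23. The other 6 were of AXIN2, NKD1 and SFRP1, whose ratios to WT Rep. 2 were all within 2-fold. Among them, division by the 0 h library with WT Rep. 2 kept turned NKD1 at 24 h to -0.59 and SFRP1 at 48 h to -0.09. For these, the turn did not need the first WT series. At 48 h, 2 members were higher after that division, 2 without dZF1 and 2 at 1.5-fold. The added member was NKD1 at 1.5-fold and 48 h and APCDD1 in the others, whose mean log2 ratio at 48 h was 1.27 after division by 0 h and 1.16 in dZF2 alone. Some settings moved NKD1 in the first WT series, which passed 2-fold at 24 h with a pseudocount of 0.1 (1.13) and missed it at 48 h with 5 (0.80). With a false discovery rate of at most 5%, 0 members had a peak within 100 kb in either list, and 1 had one against Wnt3a-treated control at scores above the median. Distances of 10, 50 and 500 kb gave counts within 1.5 times. Motif windows, of 50 and 200 bases, were chosen after seeing the data, as were pseudocounts of 0.01 and 0.2 for the 4 series, and 0 peaks held CTTTGA or CTTTGT within 50 bases. The causes were not tested. No paired analysis was made, since each series and time was 1 library and no result comes from a test.

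Each value rests on 1 library of unknown depth, and RPKM rounded to 1 decimal leaves few digits for NKD1, DKK1 and APCDD1 at 0 h. Absence from the tables is not absence of expression, since genes enter the RPKM table only from a set maximum.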
